A study of Mus musculus with 6 samples.

Results

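The cells described here are mature neutrophils with a low level of stefin transcripts from liver micrometastasis of mouse mammary tumour cells. They were chosen on the authors' scaled expression values, as cells whose mean over Csf3r, Cxcr2, G0s2 and Hdc was above 0.4, whose mean over the precursor genes Fcnb, Ltf and Cebpe was below 0.5, and whose mean over Stfa2, Stfa3, Cstdc4, Csta2 and Prok2 was at or below 0.5. This gate held 1189 of the 10248 micrometastasis cells, out of 23008 cells in the series. The levels of the 12 genes of the gate are therefore descriptions of how the cells were picked.

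Neutrophils leave the bone marrow after a maturation in which successive granule proteins are made, and circulate as short-lived cells that carry the receptors for G-CSF and for CXCR2-binding chemokines. Once in a tissue they sense microbial and damage signals and can make IL-1β, prostaglandins and chemokines, largely through NF-κB, while type I interferon switches on a separate set of genes. Stefins of the A family are inhibitors of cysteine proteases that mouse neutrophils carry in amounts that differ from cell to cell. In liver metastasis, neutrophils have been described both as helpers and as opponents of tumour cells.

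All 6 libraries came from livers of Balb/c mice given 4T07 mammary carcinoma cells by intracardiac injection, and held CD45+ cells sorted from a piece of about 5 mm a side. The tumour cells were either control (Ctrl) or carried an shRNA against Tim3 (Tim3-KD), while the immune cells of the host were not targeted. Day 3 gave the micrometastasis and the adjacent tissue (AT), and day 12 the macrometastasis. Each library was made from a pool of 2 mice and was the 1 library of its group, so mice, libraries and groups cannot be told apart, no test between groups was possible, and intervals cover counting error only. The 2 micrometastasis libraries shared 7 cell barcodes, and no barcode was shared among the chosen cells.

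In Ctrl micrometastasis 645 of 5106 cells were stefin-low mature neutrophils, a share of 12.6% (95% exact interval 11.7 to 13.6). Tim3-KD micrometastasis held 544 of 5142, or 10.6% (9.75 to 11.5). With the gate gene G0s2, itself lower in Tim3-KD, left out of the gate, 643 cells in Ctrl and 578 in Tim3-KD were chosen. The stefin-high mature neutrophils went the other way, with 16.5% (15.5 to 17.6) in Ctrl and 21.1% (20.0 to 22.3) in Tim3-KD. Among mature neutrophils alone, the stefin-low share was thus 43.3% (40.8 to 45.9) in Ctrl and 33.4% (31.1 to 35.7) in Tim3-KD. The same gate took 13.05% and 13.9% of cells in Ctrl and Tim3-KD macrometastasis and 17.5% in Ctrl AT. In Tim3-KD AT it took 15 of 542 cells, or 2.77% (1.56 to 4.52).

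**Figure D1:**
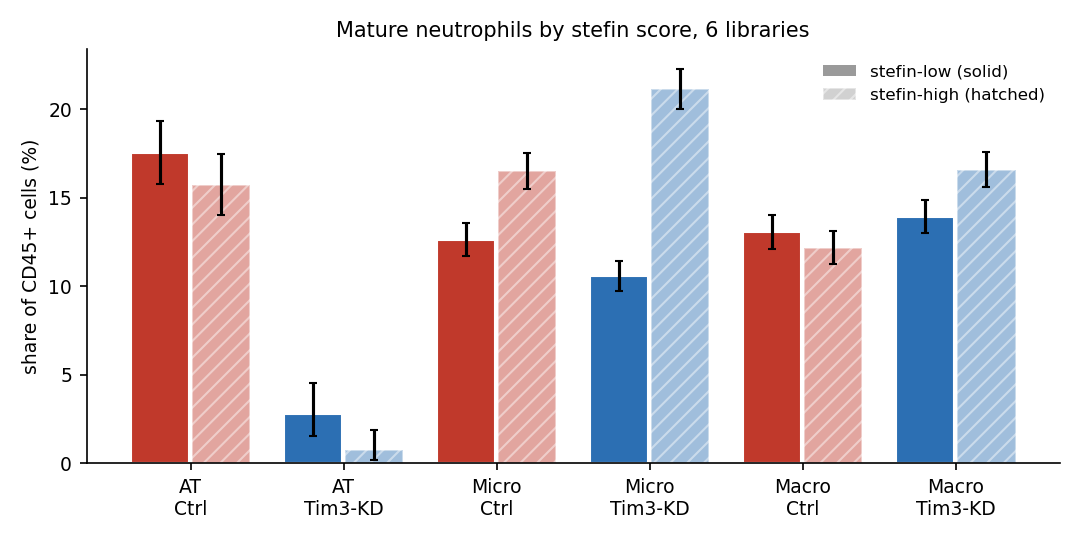
Share of CD45+ cells, in percent, that were stefin-low (solid bars) or stefin-high (hatched bars) mature neutrophils in each of the 6 libraries, Ctrl in red and Tim3-KD in blue, with exact 95% binomial intervals as error bars. In micrometastasis the stefin-low share was 12.6% in Ctrl and 10.6% in Tim3-KD, and the stefin-high share 16.5% and 21.1%.

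The stefin cut ran through a continuous range of scores. Of the chosen cells, 52 in Ctrl and 75 in Tim3-KD lay within 0.1 below the cut, beside 50 and 51 cells within 0.1 above it, and the nearest scores on either side were 0.499 and 0.501. The chosen cells were shallower than the stefin-high ones, with a median of 4774 UMIs (unique molecular identifiers, the counted transcripts) a cell in Ctrl and 4734 in Tim3-KD against 7089 and 7255. Levels below are given as CPM, the UMIs of a gene summed over cells, as parts per 1000000 of all their UMIs.

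Csf3r, Acod1 and Isg15 were each found in most of the chosen cells. Csf3r, the G-CSF receptor and a gate gene, had a UMI in 99.4% of the chosen cells in Ctrl and 98.7% in Tim3-KD. It had one in 0.496% and 4.17% of B cells, which should lack it (median 3433 and 4252 UMIs). As the gate used Csf3r and the B cells were taken outside the gate, these shares describe the choice of cells and are no evidence of their identity. After every cell was thinned to 1500 UMIs the Csf3r shares were 80.4% in Ctrl and 76.5% in Tim3-KD. Acod1, the enzyme that makes itaconate, was found in 82.0% of cells in Ctrl and 82.0% in Tim3-KD (1.65% and 5.56% of B cells). Isg15, a ubiquitin-like protein induced by interferon, was found in 73.2% and 77.2% (6.61% and 8.33% of B cells).

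The gate also let in cells that carried defining genes of another cell type. These were 49 of 645 cells in Ctrl (7.60%) and 68 of 544 in Tim3-KD (12.5%), and being deep (median 9409 and 8551 UMIs) they held 19.6% and 22.6% of the UMIs. Monocyte genes marked 23 and 32 of them, Kupffer or macrophage genes 9 and 21, and endothelial genes 5 and 20. The summed level of 11 Kupffer or macrophage markers was 296 CPM in Ctrl and 1065 in Tim3-KD over all chosen cells, with none of the 11 at 0, and 182 and 126 CPM without the marked cells, whose removal lowers these genes by construction. Neutrophil precursor genes marked 6 and 4 cells. The main comparisons below are therefore given with and without the marked cells, whose definition was chosen after the data were seen.

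Of 1335 genes with at least 100 UMIs, 187 were lower in Tim3-KD by at least 1.5-fold (14%) and 116 were higher (8.69%). All genes here and below are those among the 2669 features kept as highly variable for micrometastasis, not the whole transcriptome. These features held 13.9% of the UMIs of the chosen cells in Ctrl and 12.3% in Tim3-KD. Without the marked cells they held 14.2% and 11.7%, a difference that enters all ratios over total UMIs. The median of all genes was -0.06 on the log2 scale. Without the marked cells 1023 genes were left, of which 200 were lower and 40 higher, with a median of -0.19 (19.6% and 3.91%). Called in the same direction both ways were 144 lower and 28 higher genes. Of 9 joint features (reads that match several genes at once) that stood at 0 in 1 whole micrometastasis library, 7 are among the genes counted. The joint Ly6c1/Ly6c2 feature is 1 of them, with 0 UMIs in Ctrl and 521 in the Tim3-KD cells, and no fold is read from it. Leaving out all joint features gave 177 lower and 114 higher genes, and with G0s2 left out of the gate 193 were higher.

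**Figure D2:**
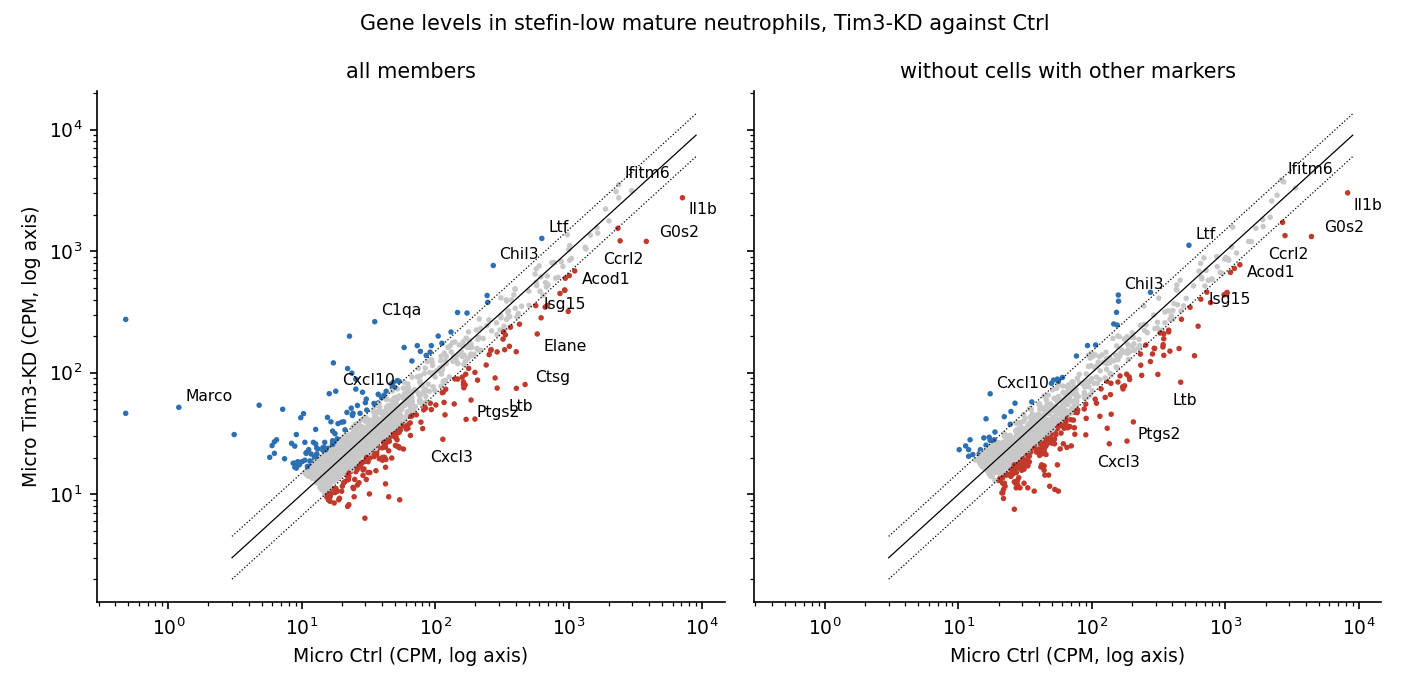
Level of each gene in stefin-low mature neutrophils of Ctrl (x axis) and Tim3-KD (y axis) micrometastasis, in CPM on log axes, for all chosen cells (left) and without cells that carry markers of other cell types (right). Genes at least 1.5-fold higher in Tim3-KD are blue, those at least 1.5-fold lower red, the solid line is equality and the dotted lines 1.5-fold. Il1b lay at 7118 CPM on the Ctrl axis and 2750.1 on the Tim3-KD axis, and the macrophage gene C1qa leaves the upper left once the marked cells are removed.

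Most tested inflammatory cytokine genes were lower in the Tim3-KD cells. Of 10 members of this list that could be tested, 6 were called lower and 1 higher, with a median of -0.73, and without the marked cells 5 of 8 were lower and none higher, with a median of -0.97. These counts stand beside 14% lower and 8.69% higher of all genes, and 19.6% and 3.91% without the marked cells. Il1b, which encodes the pro-inflammatory cytokine IL-1β, stood at 7118 CPM in Ctrl against 2750.1 in Tim3-KD. This was a fall of 2.59-fold (2.53 to 2.65), and of 2.73-fold without the marked cells. The median cell had 85.9 Il1b UMIs per 10000 in Ctrl and 26.3 in Tim3-KD, with an SD between cells of 71.1 and 39.2. The lower level was thus seen across the range of cells rather than in a few.

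Ptgs2, the inducible cyclooxygenase of prostaglandin synthesis, stood at 170.4 CPM in Ctrl against 41.3 in Tim3-KD, a fall of 4.13-fold (3.47 to 4.94), and of 6.70-fold without the marked cells. It was found in 247 cells in Ctrl and 72 in Tim3-KD, where 1 cell held 19.2% of its UMIs. Outside this list, Ltb, the lymphotoxin beta subunit, was at 405 CPM in Ctrl against 74.3 in Tim3-KD and fell 5.45-fold (4.801 to 6.21). Osm, the IL-6 family cytokine oncostatin M, was at 169 CPM in Ctrl against 97.1 in Tim3-KD and fell 1.74-fold (1.53 to 1.98). Csf1, the macrophage growth factor, did not reach 1.5-fold, with 409 CPM in Ctrl against 288 in Tim3-KD.

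The chemokine list differed with and without the marked cells. Over all chosen cells 3 of 10 members were lower and 3 higher, while without the marked cells 5 of 8 were lower and 1 higher, with a median of -1.06. Of all genes 14% were lower and 8.69% higher, and without the marked cells 19.6% and 3.91%. Cxcl3, a neutrophil attractant that binds CXCR2, was at 114 CPM in Ctrl against 28.3 in Tim3-KD, a fall of 4.03-fold (3.26 to 5.02). Ccl4, an inflammatory chemokine, was at 621 CPM in Ctrl against 283 in Tim3-KD and fell 2.20-fold (2.04 to 2.36), or 4.26-fold without the marked cells, and 1 cell held 24.3% of its Tim3-KD UMIs. Ccl3, another inflammatory chemokine, was lower by 1.44-fold over all cells, short of the call, and by 2.09-fold without the marked ones. Ccrl2, an atypical chemerin-binding receptor kept on this list, was at 2428 CPM in Ctrl against 1216 in Tim3-KD, a fall of 2.00-fold (1.93 to 2.07). Ccl6 was at 782 CPM in Ctrl against 803 in Tim3-KD.

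Cxcl10, an interferon-induced CXCR3 ligand that stands on both the chemokine and the interferon list, was the exception. It rose from 18.0 CPM in Ctrl to 70.4 in Tim3-KD, or 3.92-fold (3.02 to 5.13), and 3.88-fold without the marked cells. Its UMIs came from 29 and 42 cells, and 1 Tim3-KD cell held 31.2% of them. Among stefin-high cells the Ctrl level was 24.8 CPM and the Tim3-KD level 11.8. Ccl5, a chemokine of lymphocytes and macrophages, was at 4.79 CPM in Ctrl against 54.0 in Tim3-KD over all cells and at 5.06 and 0.684 CPM without the marked ones.

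Interferon-stimulated genes did not share this pattern. Of 35 tested, 34 lay within 1.5-fold, none was lower and Cxcl10 alone was higher, with a median of 0.03. Of all genes 14% were lower and 8.69% higher. Isg15 was at 699 CPM in Ctrl against 532 in Tim3-KD, or 1.31-fold lower (1.24 to 1.39). The schlafens Slfn1 and Slfn4, which restrain growth in myeloid and lymphoid cells, were at 620.5 CPM in Ctrl against 613 in Tim3-KD and at 503 CPM in Ctrl against 469 in Tim3-KD. Ifitm6, a membrane protein of the interferon-induced family, was at 2372 CPM in Ctrl against 3539 in Tim3-KD, higher by 1.49-fold (1.45 to 1.53) and so just short of a call. Without the marked cells 29 could be tested, of which 1 was lower and 1 higher, with a median of -0.05, beside 19.6% and 3.91% of all genes.

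The promoters of the genes on either side of this split are shown for their motifs, from RefSeq on GRCm38.p6, as 250 bases before to 50 after the start, 5′ to 3′ on the gene's strand, with matches in capitals. The interferon-stimulated response element (ISRE) was searched as GAAA, 2 bases of any kind and GAAA again, the NF-κB site as GGG, 2 bases of any kind and TTTCC, the C/EBP site as TTGCNNAA and the AP-1 site as TGANTCA, each on both strands.
Isg15 promoter, chr4:156200769-156201068, minus strand: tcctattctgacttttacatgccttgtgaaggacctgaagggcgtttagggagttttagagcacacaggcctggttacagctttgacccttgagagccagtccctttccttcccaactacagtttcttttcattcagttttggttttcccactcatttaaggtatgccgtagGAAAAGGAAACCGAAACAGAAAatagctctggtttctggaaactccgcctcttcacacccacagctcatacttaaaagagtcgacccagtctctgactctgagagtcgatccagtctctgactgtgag
Cxcl10 promoter, chr5:92348840-92349139, minus strand: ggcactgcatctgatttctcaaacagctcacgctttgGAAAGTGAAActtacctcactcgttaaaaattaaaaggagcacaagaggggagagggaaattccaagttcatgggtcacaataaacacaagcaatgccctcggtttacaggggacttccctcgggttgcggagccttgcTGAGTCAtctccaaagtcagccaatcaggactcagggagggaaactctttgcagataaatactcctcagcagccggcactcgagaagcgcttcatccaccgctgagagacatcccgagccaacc
Cxcl3 promoter, chr5:90785851-90786150, plus strand: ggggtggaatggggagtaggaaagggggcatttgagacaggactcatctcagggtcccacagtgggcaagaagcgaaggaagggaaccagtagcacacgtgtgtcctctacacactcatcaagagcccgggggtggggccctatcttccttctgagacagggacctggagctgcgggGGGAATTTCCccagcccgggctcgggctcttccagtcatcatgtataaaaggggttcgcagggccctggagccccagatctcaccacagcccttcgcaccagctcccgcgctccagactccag
Ltb promoter, chr17:35194257-35194556, plus strand: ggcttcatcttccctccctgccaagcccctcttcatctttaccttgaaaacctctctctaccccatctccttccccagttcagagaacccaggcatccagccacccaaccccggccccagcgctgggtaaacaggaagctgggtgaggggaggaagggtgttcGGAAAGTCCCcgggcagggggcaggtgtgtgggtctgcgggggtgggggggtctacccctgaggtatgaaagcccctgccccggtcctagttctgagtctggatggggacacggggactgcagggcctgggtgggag
Ptgs2 promoter, chr1:150099781-150100080, plus strand: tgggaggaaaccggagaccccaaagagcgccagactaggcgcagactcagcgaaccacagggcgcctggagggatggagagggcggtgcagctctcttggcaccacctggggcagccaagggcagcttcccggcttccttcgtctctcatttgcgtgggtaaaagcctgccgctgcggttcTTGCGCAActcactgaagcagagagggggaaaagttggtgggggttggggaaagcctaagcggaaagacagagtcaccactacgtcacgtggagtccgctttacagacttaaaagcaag
The capitals are 3 overlapping ISRE matches in Isg15, an ISRE followed by an AP-1 match in Cxcl10, an NF-κB match each in Cxcl3 and Ltb, and a C/EBP match in Ptgs2. No searched motif matched in the Il1b or G0s2 window. Matches did not follow the split throughout. An NF-κB match was also found for Nfkbia and Csf1, which were not called, and for Olfm4, which was higher in Tim3-KD. The interferon genes Ifitm6, Slfn1 and Slfn4 had no ISRE match.

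An ISRE match was present in 20 of the 30 tested interferon genes with a promoter (66.7%), against 3.99% of all 27025 genes with a promoter. The NF-κB letters were in 5 of the 15 tested inflammatory cytokine and chemokine genes, against 1.89% of all genes with a promoter. The AP-1 letters were also in 5 of these 15 genes and in 8 of the 30 interferon genes, against 8.97% of all genes with a promoter. Of the 140 genes called lower in Tim3-KD that have a promoter, 7 (5%) held the NF-κB letters and 6 (4.29%) an ISRE, beside 3.42% and 7.02% of the 1054 tested genes with a promoter. A C/EBP match was in 15% of these lower genes and in 11.5% of those tested, and an AP-1 match in 11.4% and 9.20%. Over all 32851 promoters, the ISRE, NF-κB, C/EBP and AP-1 letters were in 3.44%, 1.63%, 10.8% and 7.81%. These matches describe letters in the windows and are not measured binding sites.

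**Figure D3:**
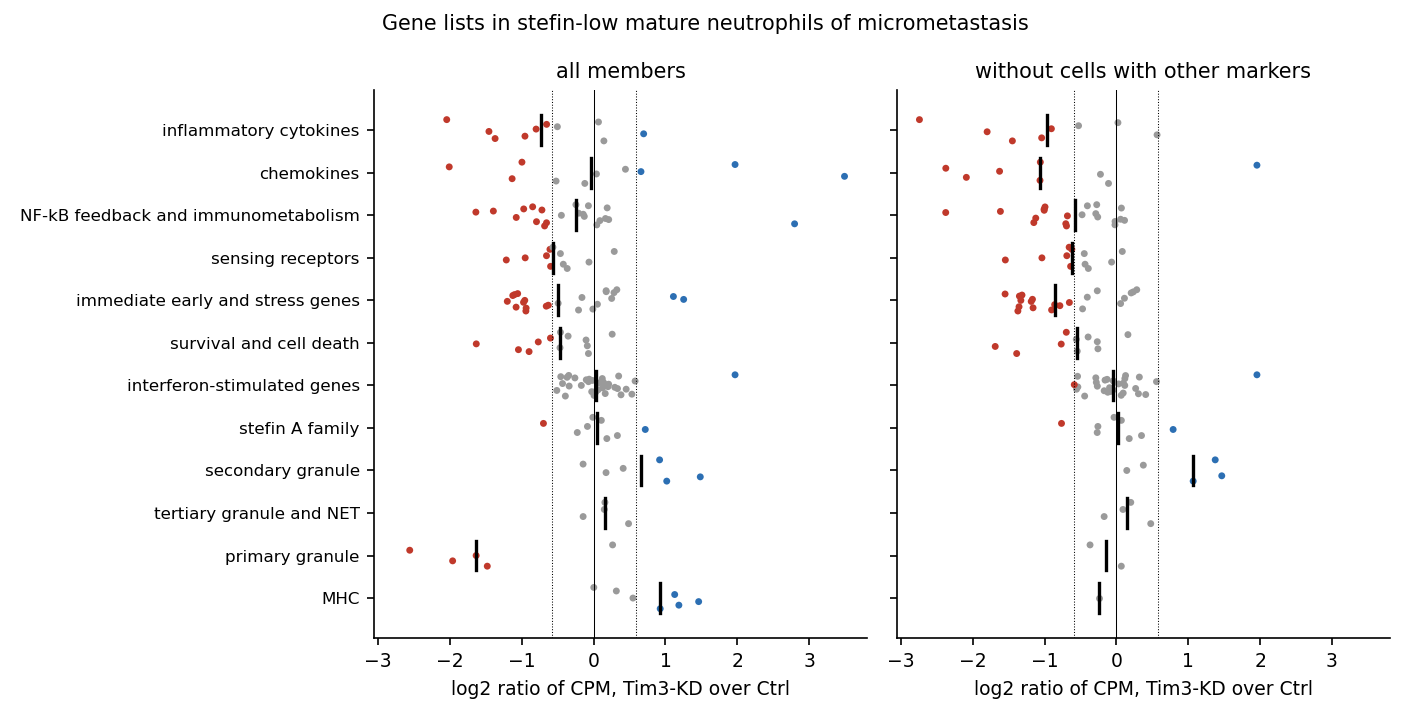
Log2 ratio of CPM, Tim3-KD over Ctrl, for each tested gene (points) of 12 gene lists in stefin-low mature neutrophils, over all chosen cells (left) and without cells that carry markers of other cell types (right). Black bars are list medians, dotted lines 1.5-fold, blue points higher and red points lower. The inflammatory cytokine median was -0.73 and -0.97, the interferon median 0.03 and -0.05, and of the MHC and primary granule lists 1 and 2 genes could still be tested on the right.

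Genes of NF-κB feedback and immunometabolism were lower in 9 of 21 cases and higher in 1, with a median of -0.25, and without the marked cells in 10 of 20 and none, with a median of -0.58. Of all genes 14% were lower and 8.69% higher, and without the marked cells 19.6% and 3.91%. Acod1 was at 1009.9 CPM in Ctrl against 629 in Tim3-KD, a fall of 1.61-fold (1.53 to 1.69). Tnfaip2, an NF-κB target, was at 943 CPM in Ctrl against 599 in Tim3-KD and fell 1.58-fold (1.496 to 1.66). Socs3, the feedback inhibitor of STAT3 signalling, was at 185 CPM in Ctrl against 59.5 in Tim3-KD, a fall of 3.12-fold (2.68 to 3.63), and of 5.20-fold without the marked cells. Nfkbia, which encodes an inhibitor of NF-κB, stayed within 1.5-fold, at 2961 CPM in Ctrl against 3145 in Tim3-KD. So did Nfkbiz, at 560.1 CPM in Ctrl against 648 in Tim3-KD.

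Sensing receptors were lower in 5 of 11 cases and higher in none, beside 14% and 8.69% of all genes. With the marked cells left out 6 of 11 were lower, beside 19.6% of all. Cd14, the lipopolysaccharide co-receptor, was at 2338 CPM in Ctrl against 1543 in Tim3-KD, a fall of 1.52-fold (1.47 to 1.57). Clec7a (dectin-1), which binds fungal glucan, was at 691 CPM in Ctrl against 357 in Tim3-KD and fell 1.94-fold (1.81 to 2.07). Clec4e (mincle) and Trem1, an amplifier of inflammatory signals, were not called, with 1629.9 CPM in Ctrl against 1558 in Tim3-KD and with 1346 CPM in Ctrl against 1043 in Tim3-KD.

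Of growth factor, cytokine and chemokine receptors that the gate did not use, 1 of 8 was called lower and none higher, beside 14% and 8.69% of all genes. Il1r2, the decoy receptor for IL-1, was at 1452 CPM in Ctrl against 1355 in Tim3-KD, and the chemokine receptor Ccr1 at 694 CPM in Ctrl against 521 in Tim3-KD. The gate genes Csf3r and Cxcr2 were at 1048 CPM in Ctrl against 869 in Tim3-KD and at 798 CPM in Ctrl against 599 in Tim3-KD, and Hdc, the histamine-forming enzyme, at 1328 CPM in Ctrl against 1075 in Tim3-KD. G0s2, an inhibitor of fat breakdown, differed far more than the other genes that define maturity, at 3815 CPM in Ctrl against 1203 in Tim3-KD, 3.17-fold lower. With G0s2 left out of the gate its log2 ratio was -1.68, beside -1.67 with it.

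Immediate early and stress genes, which also respond to tissue handling, were lower in part as well. Of 23 tested, 11 were lower and 2 higher, with a median of -0.49, and without the marked cells 13 of 21 were lower and none higher. The same shares of all genes apply, 14% and 8.69%, and 19.6% and 3.91% without the marked cells. The phosphatase gene Dusp1 was at 936 CPM in Ctrl against 476 in Tim3-KD, a fall of 1.97-fold (1.86 to 2.08). Zfp36, whose product destroys cytokine messages, was at 932 CPM in Ctrl against 479 in Tim3-KD and fell 1.94-fold (1.84 to 2.06). Egr1, an early transcription factor, was at 860.4 CPM in Ctrl against 448 in Tim3-KD and fell 1.92-fold (1.81 to 2.03). Stress genes on the survival list were lower too, Gadd45a by 3.104-fold (2.75 to 3.51) and Gadd45b by 1.71-fold (1.58 to 1.85), while Cdkn1a was at 185 CPM in Ctrl against 172 in Tim3-KD. In all, 5 of 12 survival and cell death genes were lower and none higher, beside 14% and 8.69% of all genes, and without the marked cells 4 of 10 were lower, beside 19.6%.

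Several of these genes were also lower in other cells. In stefin-high mature neutrophils the Tim3-KD level was 2.46-fold lower for Il1b, 4.34-fold for Ptgs2, 2.44-fold for G0s2 and 6.24-fold for Cxcl3. Over all other micrometastasis cells, outside the mature gate, Il1b was 2.88-fold lower and Ptgs2 2.63-fold. Outside the gate 42.8% of all 2663 genes were lower and 3.38% higher. Against that background, immediate early genes were lower in 15 of 28 cases and interferon genes in 22 of 42. In stefin-high cells 9 of 24 immediate early genes were lower and 2 higher, beside 10.3% and 8.5% of all 1600 genes, and in B cells 1 of 18 was lower and 3 were higher, beside 29.1% and 7.51% of 732 genes. In B cells, which should lack it, Il1b had a UMI after thinning in 3.92% in Ctrl and 2.99% in Tim3-KD, beside 94.3% in Ctrl and 83.5% in Tim3-KD of the stefin-low cells. What part handling or free RNA had in these values was not tested.

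Ltb was also lower in B cells, where a UMI was found after thinning in 48.4% in Ctrl and 9.31% in Tim3-KD, beside 46.4% in Ctrl and 12.0% in Tim3-KD of the stefin-low cells. The levels of Trim5, a TRIM family gene (54.2 CPM in Ctrl against 8.996 in Tim3-KD), and of Cbr3, a carbonyl reductase (42.4 CPM in Ctrl against 12.2 in Tim3-KD), were 6.02-fold and 3.49-fold lower, and outside the gate 4.91-fold and 5.39-fold. Both were thus lower outside the gate too. For Snai1, an EMT transcription factor gene, the level was 44.8 CPM in Ctrl against 9.53 in Tim3-KD, a fall of 4.70-fold (3.28 to 6.92) in the chosen cells and 1.49-fold lower outside the gate.

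Secondary granule genes, which neutrophils switch on in the marrow after the promyelocyte stage, included 4 tested genes that the gate did not use. Of these, 2 were higher in Tim3-KD and none lower, with a median of 0.66, and without the marked cells also 2, with a median of 0.87, beside 8.69% and 3.91% of all genes higher. In stefin-high cells and in cells outside the gate 2 of 4 were higher as well, beside 8.5% and 3.38% of all genes in those cells. With the marked cells left out, the summed level of 9 precursor markers, which include Chil3, Ltf and Ly6g, was 1198 CPM in Ctrl against 2127 in Tim3-KD, and that of 9 cell division genes 26.8 against 139 CPM, and their part in this result was not tested. Chil3, a chitinase-like secreted protein, was at 272 CPM in Ctrl against 762 in Tim3-KD, a rise of 2.80-fold (2.61 to 3.00), and was found after thinning in 14.0% in Ctrl and 27.2% in Tim3-KD of cells. Ltf, the iron-binding lactoferrin and a gene of the gate, was at 629 CPM in Ctrl against 1273 in Tim3-KD, 2.03-fold higher. Its share of cells after thinning was 8.41% in Ctrl and 9.11% in Tim3-KD, with 17.7% and 12.8% of its UMIs in 1 cell. Olfm4, another granule protein, was at 147 CPM in Ctrl against 313 in Tim3-KD, a rise of 2.13-fold (1.93 to 2.35), and was named for its value after the marked cells were removed. Ly6g, the surface antigen used to define neutrophils, was at 388 CPM in Ctrl against 437 in Tim3-KD, and Cd177, a surface protein stored in these granules, at 310.4 CPM in Ctrl against 413 in Tim3-KD.

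None of the 4 tested genes of tertiary granules and neutrophil traps reached 1.5-fold, beside 14% lower and 8.69% higher of all genes. With 4 genes, nothing is read from this count. Mmp8, the neutrophil collagenase, was at 975 CPM in Ctrl against 1366 in Tim3-KD (1.40-fold higher, 1.34 to 1.46), and its share of cells after thinning was 56.7% in Ctrl and 77.2% in Tim3-KD. The gelatinase gene Mmp9 was at 575 CPM in Ctrl against 519.9 in Tim3-KD, and Padi4, which citrullinates histones, at 47.7 CPM in Ctrl against 53.2 in Tim3-KD. Among genes named after the marked cells were removed, Hopx, a homeodomain-only protein gene, was at 93.5 CPM in Ctrl against 167 in Tim3-KD, and the ubiquitin ligase adaptor gene Klhl6 at 66.9 CPM in Ctrl against 125 in Tim3-KD. Serpinb1a, an inhibitor of neutrophil proteases, was 1.17-fold higher over all chosen cells and 2.05-fold without the marked ones.

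Primary granule genes, which belong to the promyelocyte stage, came from few cells. Elane (neutrophil elastase), Prtn3, Ctsg and Mpo were 2.79-, 3.11-, 5.90- and 3.90-fold lower in Tim3-KD. Elane was found in 31 cells in each library, and 1 cell held 31.8% of its Ctrl UMIs and 1 cell 59.6% of its Tim3-KD UMIs. Removal of the marked cells, which these genes help to define, left Elane at 8.04 and 8.89 CPM. The macrophage complement gene C1qa, which also helps to define the marked cells, was at 35.2 CPM in Ctrl against 263 in Tim3-KD over all cells and 4.47 and 4.45 CPM without the marked ones. The MHC class II genes H2-Aa and H2-Ab1, which were not used to mark cells, were at 105 CPM in Ctrl against 200 in Tim3-KD and at 73.3 CPM in Ctrl against 167 in Tim3-KD over all cells. Without the marked cells they were at 16.4 and 6.84 CPM and at 17.9 and 2.74 CPM.

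Of 4 tested stefin A family features that the gate did not use, 3 stayed within 1.5-fold and 1 was lower. Of all genes 14% were lower and 8.69% higher, and with 4 features nothing is read from this count. Stfa2l1, which the gate did not use, was at 1648 CPM in Ctrl against 1407 in Tim3-KD, and Csta3 at 43.4 CPM in Ctrl against 26.7 in Tim3-KD, a fall of 1.62-fold (1.27 to 2.09). The gate genes Stfa2, Stfa3 and Cstdc4, which the rule held low, were at 601 CPM in Ctrl against 756 in Tim3-KD, at 131 CPM in Ctrl against 216 in Tim3-KD and at 747 CPM in Ctrl against 805 in Tim3-KD. These genes are near-identical copies, between which reads may be split. Prok2, a secreted peptide of activated neutrophils and a gate gene, was at 208 CPM in Ctrl against 188 in Tim3-KD.

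Among single cells without the markers of other types, the summed inflammatory cytokines and chemokines had a mean of 170.1 UMIs per 10000 in Ctrl (SD 109.98, 596 cells) and 80.5 in Tim3-KD (SD 69.9, 476 cells). The 10th and 90th percentiles were 38.2 and 319 in Ctrl and 12.3 and 174 in Tim3-KD, so the cells overlapped widely. Interferon genes had means of 62.9 (SD 45.2) and 69.7 (SD 45.8). Over the cells of 1 library, the inflammatory sum went with that of NF-κB feedback genes (Spearman rho 0.73 in both libraries) and of immediate early genes (0.72 in Ctrl, 0.70 in Tim3-KD). With the interferon sum it had a rho of -0.12 and -0.21, and with the stefin sum of 0.04 and 0.27. All these sums share the depth of the cell, with which the inflammatory sum had a rho of -0.47 and -0.43. With depth the immediate early sum had a rho of -0.50 and -0.47 and the NF-κB feedback sum of -0.27 and -0.36. The interferon sum went the other way, with 0.27 and 0.37. The part of depth in the values above was not tested.

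**Figure D4:**
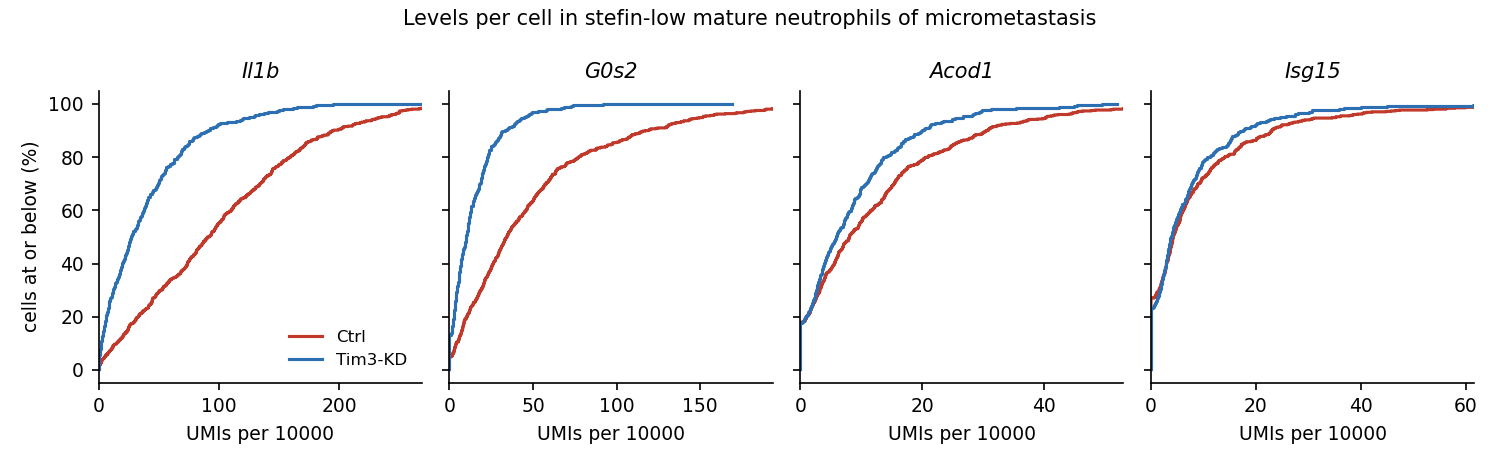
Cumulative share of stefin-low mature neutrophils, in percent, at or below a given level of Il1b, G0s2, Acod1 and Isg15 (UMIs per 10000) in Ctrl (red, 596 cells) and Tim3-KD (blue, 476 cells) micrometastasis, without cells that carry markers of other types. The Tim3-KD curves of Il1b and G0s2 lie to the left over the whole range, while the Isg15 curves run close together.

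Against stefin-high mature neutrophils of the same library, the stefin-low cells carried higher levels of many genes. As the gate split these same cells, the values are a description. Of 1385 genes 329 (23.8%) were at least 1.5-fold higher in both libraries and 9 (0.65%) lower, but the median of all genes was itself 0.43 in Ctrl and 0.44 in Tim3-KD on the log2 scale. The listed features held 13.9% of UMIs in stefin-low against 12.7% in stefin-high cells in Ctrl, and 12.3% against 11.2% in Tim3-KD. Relative to a trimmed mean over genes, 113 were higher and 52 lower, so the share of higher genes among those called was 97.3% and 68.5%. Without the marked cells 184 were higher and 8 lower, 146 and 6 of them shared with the first count.

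Of the 9 lower features 5 were stefins, 1 of them a joint feature of a pair of gate genes. Stfa2l1 was at 1648 against 5122 CPM in Ctrl and 1407 against 3853 in Tim3-KD, Cstdc6 at 114 against 414 CPM in Ctrl and 113 against 410.3 in Tim3-KD and Stfa1 at 16.5 against 69.0 CPM in Ctrl and 18.8 against 68.2 in Tim3-KD. Padi4 was at 47.7 against 82.9 CPM in Ctrl and 53.2 against 91.7 in Tim3-KD, and Cd177 at 310.4 against 561 CPM in Ctrl and 413 against 676 in Tim3-KD. Ggt1, the glutathione-cleaving transferase gene, was at 47.7 against 117 CPM in Ctrl and 75.1 against 116 in Tim3-KD. All of these lie below the median of all genes by more than 1 on the log2 scale.

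Chemokine and cytokine genes were among the higher ones. Of 9 chemokine list members 6 were higher and none lower, and of 9 inflammatory cytokines 4 and none, with medians of 1.28 and 0.88 in Ctrl against the 0.43 of all genes. Ccl4 was at 621 against 168 CPM in Ctrl and 283 against 69.8 in Tim3-KD, and Ccrl2 at 2428 against 998 CPM in Ctrl and 1216 against 551 in Tim3-KD. Il1b was at 7118 against 3863 CPM in Ctrl and 2750.1 against 1572 in Tim3-KD, and Csf1 at 409 against 144 CPM in Ctrl and 288 against 143 in Tim3-KD. Gngt2, a G protein subunit gene, was at 90.3 against 38.5 CPM in Ctrl and 70.1 against 22.8 in Tim3-KD. Isg15 was at 699 against 439 CPM in Ctrl and 532 against 367 in Tim3-KD. Acod1 was at 1009.9 against 707 CPM in Ctrl and 629 against 467 in Tim3-KD. The Acod1 ratios were 1.43 and 1.35, close to the median shift of all genes. Interferon genes were higher in 12 of 34 cases, beside 23.8% of all genes, with a median of 0.54 in Ctrl against the 0.43 of all.

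The largest folds belonged to the marked cells. Fn1 and Ccr2, genes of monocytes, were at 38.1 against 2.03 CPM in Ctrl and 28.6 against 1.56 in Tim3-KD and at 44.8 against 2.91 CPM in Ctrl and 31.8 against 1.89 in Tim3-KD. Both help to define the marked cells, so nothing is read from their few UMIs in the rest. S100a4, which was not used to mark cells, was at 117 against 7.09 CPM in Ctrl and 83.3 against 7.25 in Tim3-KD, a ratio of 16.5 and 11.5 that became 1.38 and 0.976. Alb, the albumin gene of hepatocytes, remained higher without the marked cells, at 3.05-fold in Ctrl and 2.67-fold in Tim3-KD, with 25.2 against 7.47 CPM in Ctrl and 37.6 against 12.4 in Tim3-KD over all cells.

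The same gate was applied to macrometastasis and AT, each on its own scaled values, so that its position in UMIs can differ between sites. Il1b, Nfkbia, Dusp1 and Zfp36 could not be followed to macrometastasis, whose table used here does not list them. In AT, Il1b was at 3598 CPM in Ctrl against 9697 in Tim3-KD, and Dusp1 at 727 against 3240.4. In Tim3-KD AT the 15 cells gave 82398 UMIs, and its values are given without being read further.

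Outside the gate genes, 22 genes of the cytokine, chemokine, NF-κB and sensing lists were lower in Tim3-KD micrometastasis and could be tested in macrometastasis. There 4 of them were higher in Tim3-KD, 18 within 1.5-fold and none lower. Of all 780 genes tested at both sites 14.6% were higher and 8.59% lower in macrometastasis, and of the 123 lower in micrometastasis 21.1% and 7.32%. Among those within 1.5-fold in macrometastasis, the ratio was 0.861 for Cd14 and 1.37 for Ptgs2. Cxcl3 stood at 114 CPM in Ctrl against 28.3 in Tim3-KD micrometastasis, 114 and 199.5 in macrometastasis, and 32.8 and 97.1 in AT. The ratio of Tim3-KD over Ctrl for Cxcl3 was 0.248 in micrometastasis and 1.75 (1.56 to 1.96) in macrometastasis. Socs3 stood at 185 CPM in Ctrl against 59.5 in Tim3-KD micrometastasis, 199 and 308 in macrometastasis, and 59.8 and 121 in AT, with a macrometastasis ratio of 1.54. Osm stood at 169 CPM in Ctrl against 97.1 in Tim3-KD micrometastasis, 118 and 206 in macrometastasis, and 145 and 316 in AT, with 1.74. Without the marked cells, Ctrl against Tim3-KD, Cxcl3 was at 135 against 26.0 CPM in micrometastasis and 126 against 248 in macrometastasis. Chil3 showed the opposite order, at 135 CPM in Ctrl against 76.3 in Tim3-KD macrometastasis. The gate gene G0s2 stood at 3815 CPM in Ctrl against 1203 in Tim3-KD micrometastasis, 1502 and 3404 in macrometastasis, and 1399 and 6311 in AT. With G0s2 left out of the gate its ratio was 0.312 in micrometastasis and 2.10 in macrometastasis, where that of Cxcl3 was 1.57, of Osm 1.77, of Chil3 0.477, and of Socs3 1.37, short of a call.

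**Figure D5:**
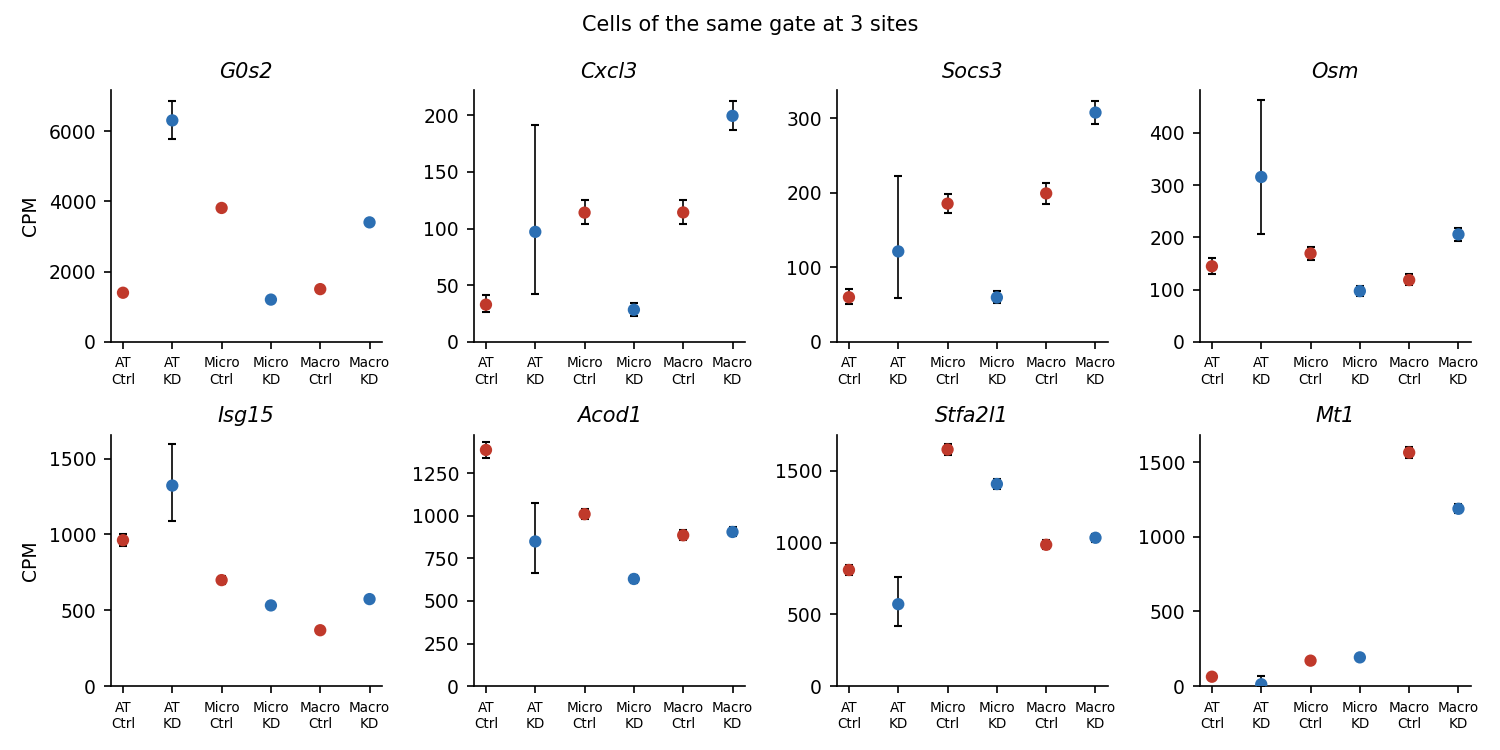
Level of 8 genes, in CPM on linear axes from 0, in cells of the same gate in each of the 6 libraries (AT, micrometastasis and macrometastasis; Ctrl red, Tim3-KD blue), with exact 95% Poisson intervals that cover counting error only. G0s2, Cxcl3, Socs3 and Osm are lower in Tim3-KD than in Ctrl in micrometastasis and higher in macrometastasis, and Mt1 is highest in macrometastasis. The wide intervals of AT Tim3-KD rest on 15 cells.

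Between Ctrl libraries, the summed level of interferon genes was higher in micrometastasis than in macrometastasis. Isg15 stood at 699 CPM in Ctrl against 532 in Tim3-KD micrometastasis, 368 and 574 in macrometastasis, and 962 and 1323 in AT, and Ifitm6 at 2372 CPM in Ctrl against 3539 in Tim3-KD micrometastasis, 732 and 675 in macrometastasis, and 2104 and 72.8 in AT. In macrometastasis, Isg15 was 1.56-fold higher in Tim3-KD than in Ctrl, a direction unlike that of micrometastasis. Slfn1 was at 620.5 CPM in Ctrl micrometastasis and 273 in Ctrl macrometastasis. Over the 34 interferon genes listed for all 3 sites the summed level was 5783 CPM in Ctrl micrometastasis, 2489 in Ctrl macrometastasis and 5913 in Ctrl AT.

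Acod1 stood at 1009.9 CPM in Ctrl against 629 in Tim3-KD micrometastasis, 886 and 905 in macrometastasis, and 1387 and 849.5 in AT, so the 3 Ctrl libraries lay between 886 and 1387 CPM. Stfa2l1 stood at 1648 CPM in Ctrl against 1407 in Tim3-KD micrometastasis, 984 and 1033 in macrometastasis, and 809 and 570.4 in AT. Mt1, a metal-binding metallothionein gene that responds to stress and glucocorticoids, stood at 170.4 CPM in Ctrl against 192 in Tim3-KD micrometastasis, 1565 and 1188 in macrometastasis, and 62.7 and 12.1 in AT. It was 9.19-fold lower in Ctrl micrometastasis than in Ctrl macrometastasis, and 14.5-fold without the marked cells. Lmna, the lamin A gene of the nuclear envelope, was at 6.23 and 82.0 CPM in these libraries, and Arrdc4, an arrestin-domain gene, at 32.1 and 281. Day and kind of metastasis changed together and cannot be told apart.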

How the data were processed

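Single-cell RNA of CD45+ liver cells (10x 3' v3.1) was measured in 6 libraries, each the only one of its group. The authors trimmed reads with TrimGalore 0.4.3, aligned them with STAR 2.7.7a to GRCm38 (Ensembl 102) over exons and introns, removed cells by depth, genes and mitochondrial share as well as scrublet doublets, and deposited scaled scores of highly variable genes, 1 table per site. The fixed plan assumed counts. As the tables hold scores, UMIs and cell totals were recovered by inverting the scaling, and 99.9% or more of the values came out whole within 0.05. Scores at the ceiling of 10 were 0.144 to 0.160% of values. CPM is summed UMIs over summed cell totals, with exact Poisson and exact binomial 95% intervals (scipy 1.17.1, numpy 2.4.6, pandas 2.3.3, Python 3.11.15). Such intervals cover counting error only. Genes with at least 100 UMIs were called at 1.5-fold, with a sum of 0 set to 3 UMIs. Cells with at least 3 summed UMIs of defining genes of another cell type (10 for precursor genes) were marked. Named genes were the gate and label genes, the 4 of highest CPM in each list, the 10 highest and lowest Tim3-KD over Ctrl (at least 200 UMIs), the 8 highest and lowest stefin-low over stefin-high and the 6 highest and lowest Ctrl micrometastasis over macrometastasis. The Tim3-KD over Ctrl ranks and the 8 highest stefin-low over stefin-high were also taken without the marked cells. Gate, mitochondrial, ribosomal, haemoglobin, receptor segment and unnamed gene models were left out of these ranks. Genes outside these are named for their role in a comparison after their values were seen. The members, lists and rules were chosen with earlier results of these data known. Alternatives changed the gate, the count minimum, the fold, the scaling and the cells kept.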

Additional observations from a re-analysis of the deposited data

Results flagged for a closer look

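For 20 of the 114 named features, many of them picked for large ratios, the Tim3-KD over Ctrl ratio of stefin-low cells turned between sites. It was at least 1.5-fold in opposite directions in micrometastasis and macrometastasis, while others went opposite ways by less. Over all genes tested at both sites outside the gate, 26 of the 123 lower in micrometastasis were higher in macrometastasis. Of the 87 higher in micrometastasis, 15 were lower there. With 1 library a group these differences were not tested. As log2 differences, micrometastasis minus macrometastasis, genes that are not precursor or class II genes differed as follows: G0s2 by -2.85, Ltf by 2.21, Osm by -1.60, Chil3 by 2.31, Snai1 by -2.99, Cxcl3 by -2.81, Lmna by 3.30, Klhl6 by 1.54, Socs3 by -2.27, Ahnak by 1.57 and Scimp by -2.19. Precursor and class II genes differed as follows: Cebpe by -5.10, Prtn3 by -8.93, Elane by -9.68, Ctsg by -10.75, Mpo by -10.49, H2-Aa by 1.72, H2-Ab1 by 1.91, H2-Eb1 by 2.49 and Ms4a3 by -10.16. These values rest on marked cells: without them Elane, for example, was at 8.04 against 8.89 CPM in micrometastasis and 2.39 against 5.44 in macrometastasis (Ctrl against Tim3-KD), and Cebpe turned, at 4.77 against 12.7 CPM in micrometastasis and 1.79 against 0.816 in macrometastasis. The class II genes turned in micrometastasis, with H2-Aa at 16.4 against 6.84 CPM in micrometastasis and 29.6 against 13.3 in macrometastasis. G0s2, Ltf and Cebpe are genes of the gate.

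For 9 of the 114 named features the ratio was at least 1.5-fold in opposite directions in stefin-low and stefin-high cells of micrometastasis, also untested. The share of all genes that did so was not counted. As stefin-low minus stefin-high on the log2 scale, the differences were Cebpe by -1.58, Prtn3 by -3.35, Elane by -4.28, Ctsg by -4.63, Mpo by -3.24, H2-Aa by 2.10, H2-Ab1 by 2.76, Ms4a3 by -2.90 and Cxcl10 by 3.04. The precursor genes among these came from few cells, as 1 cell held 59.6% of the Elane UMIs in Tim3-KD.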

How the results depend on the processing

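All alternatives rest on the same libraries, so they show the effect of choices and not of a repeat. For named genes in Ctrl micrometastasis over the other Ctrl sites, the mean over cells moved 47 ratios out of their counting interval and left 14 within. Scaling to the trimmed mean over genes moved 26 and left 35. The share of stefin-low cells in Ctrl was 11.6% with the precursor cut at 0.25. With the stefin cut at 0.25 it was 9.93% in Ctrl and 7.23% in Tim3-KD, and at 0.75 it was 15.1% and 13.3%. It was 11.7% and 9.26% without the marked cells, and 43.3% and 33.4% of mature neutrophils, a difference of -9.99 points. Genes higher in Tim3-KD numbered 40 without the marked cells, 193 with G0s2 left out of the gate, 242 at a minimum of 50 UMIs and 62 at 200, and with a 2-fold limit 49 were higher and 64 lower. Between stefin-low and stefin-high cells, 113 were higher and 52 lower relative to the trimmed mean, 184 were higher without the marked cells, and 18 (mean over cells) and 14 (stefin cut 0.25) were lower. Among genes called at 1.5-fold, without the marked cells the log2 ratio of Tim3-KD over Ctrl changed sign to 1.41 for Cebpe, 0.067 for Prtn3, 0.14 for Elane, 0.51 for Ctsg, 0.38 for Mpo, -0.89 for Thbs1, -1.26 for H2-Aa, -2.71 for H2-Ab1, -1.54 for H2-Eb1, 0.047 for Ms4a3, -2.89 for Ccl5, -1.64 for C1qb, -0.0073 for C1qa, -2.97 for C1qc, -1.54 for Clec4f, -1.12 for Vsig4, -0.54 for Fcna. The log2 ratio of stefin-low over stefin-high changed sign to -0.035 for S100a4 in Tim3-KD, -0.19 for Ccr2 in Ctrl and -0.67 in Tim3-KD, and -0.19 for Ms4a4c in Ctrl. For genes used to mark cells the removal itself lowers the level. For the others the cause was not tested. No analysis paired by site was made, and with 1 library in each group no test was made. Genes under 100 UMIs entered no count of calls, and several of the changed signs without the marked cells rest on a handful of UMIs, as for C1qc, Vsig4 and Ccr2, and give no direction.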
